A study of Mus musculus with 8 samples.

Results

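The dystrophin-glycoprotein complex was followed in mouse quadriceps through 8 genes: Dmd, Dag1, Sgca, Sgcb, Sgcd, Dtna, Utrn and Sspn. All probe sets that the array annotation pairs with exactly 1 of these symbols were taken, which gave 25 of the 45101 probe sets on the array, for 8 of 18194 named genes. A probe set is a group of short oligonucleotides that together read 1 transcript, mostly near its 3' end, and its value here is a MAS5 signal, an intensity on a linear scale. Both groups were adult male C57Bl/10 mice with no transgene or deletion named in the labels. The 4 Control samples came from mice kept for 2 weeks in room conditions. The mice of the 4 Hypoxia samples lived in a closed chamber, whose oxygen was lowered from 21% to 8% during the first week and then held at 8% for 7 days. The chamber and the low oxygen cannot be told apart, and whole quadriceps was used, so fewer cells of a type and less RNA per cell cannot be told apart either.

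The complex is a set of proteins at the membrane of the muscle fibre that joins the actin cytoskeleton inside the cell to the matrix outside it. Dystrophin binds actin and the tail of beta-dystroglycan, alpha-dystroglycan binds laminin through its sugar chains, and the sarcoglycans and sarcospan form a subcomplex that steadies the link in the membrane. Dystrobrevin and the syntrophins bind dystrophin on the inner side and carry signalling proteins, and utrophin is a homologue of dystrophin that is concentrated at the neuromuscular junction. Mutations in dystrophin or in several of the sarcoglycans cause muscular dystrophy.

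After hypoxia the transcripts of the complex did not move together. Sspn, which encodes the tetraspanin-like membrane protein sarcospan, fell about 4-fold on both of its probe sets (log2 changes -1.97 ± 0.22 and -2.0 ± 0.32, SE, n = 4 per group). Sgcb, the beta-sarcoglycan, rose 1.79-fold on its brightest probe set but fell on another. Dtna, the alpha-dystrobrevin, rose 2.37-fold on its brightest probe set and fell on 3 others. Dag1, the precursor of both dystroglycans, fell on 3 probe sets and did not pass the test on its brightest. None of the tested probe sets of Dmd, Utrn, Sgca and Sgcd passed.

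A change is the mean of log2(signal + 16) in hypoxia less that in control, with its standard error from limma, and p-values are limma's, two-sided and adjusted over all 27022 tested probe sets by the Benjamini-Hochberg method. Of the 25 probe sets 23 were tested, and 2 lay below a filter that removed the dimmest 40% of the array, at a signal of about 90.2. Of the 23, 3 rose (13%, against 12.5% of all tested probe sets) and 9 fell (39.1%, against 16.4%), while 11 did not pass. By either direction 28.8% of all tested probe sets passed. With each gene read by its brightest probe set alone, 2 of the 8 members rose and 1 fell, against 14% and 17.8% of all 13257 genes, so the larger share of falls was seen over probe sets and not over genes. Brightest means the highest mean log2 value over all 8 arrays, hypoxia included, which favours probe sets that rose over those that fell. In control alone the brightest Dtna probe set was 1419223_a_at, which did not pass (limma, adjusted p = 0.194), so the count of rises depends on this choice. The 4 hypoxia values lay clear of the 4 control values in 10 of the 23, above them in 3 and below them in 7, and the same held for 30.1% of all tested probe sets, 13.1% above and 17% below. The median change of the 23 was -0.16 and that of all tested probe sets -0.04. The 9 falls came from only 4 genes, and probe sets of 1 gene are not separate evidence. The number of arrays limits the precision, and since the labels do not say that the samples of a group are separate animals, the p-values measure only the spread between these samples.

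**Figure D1:**
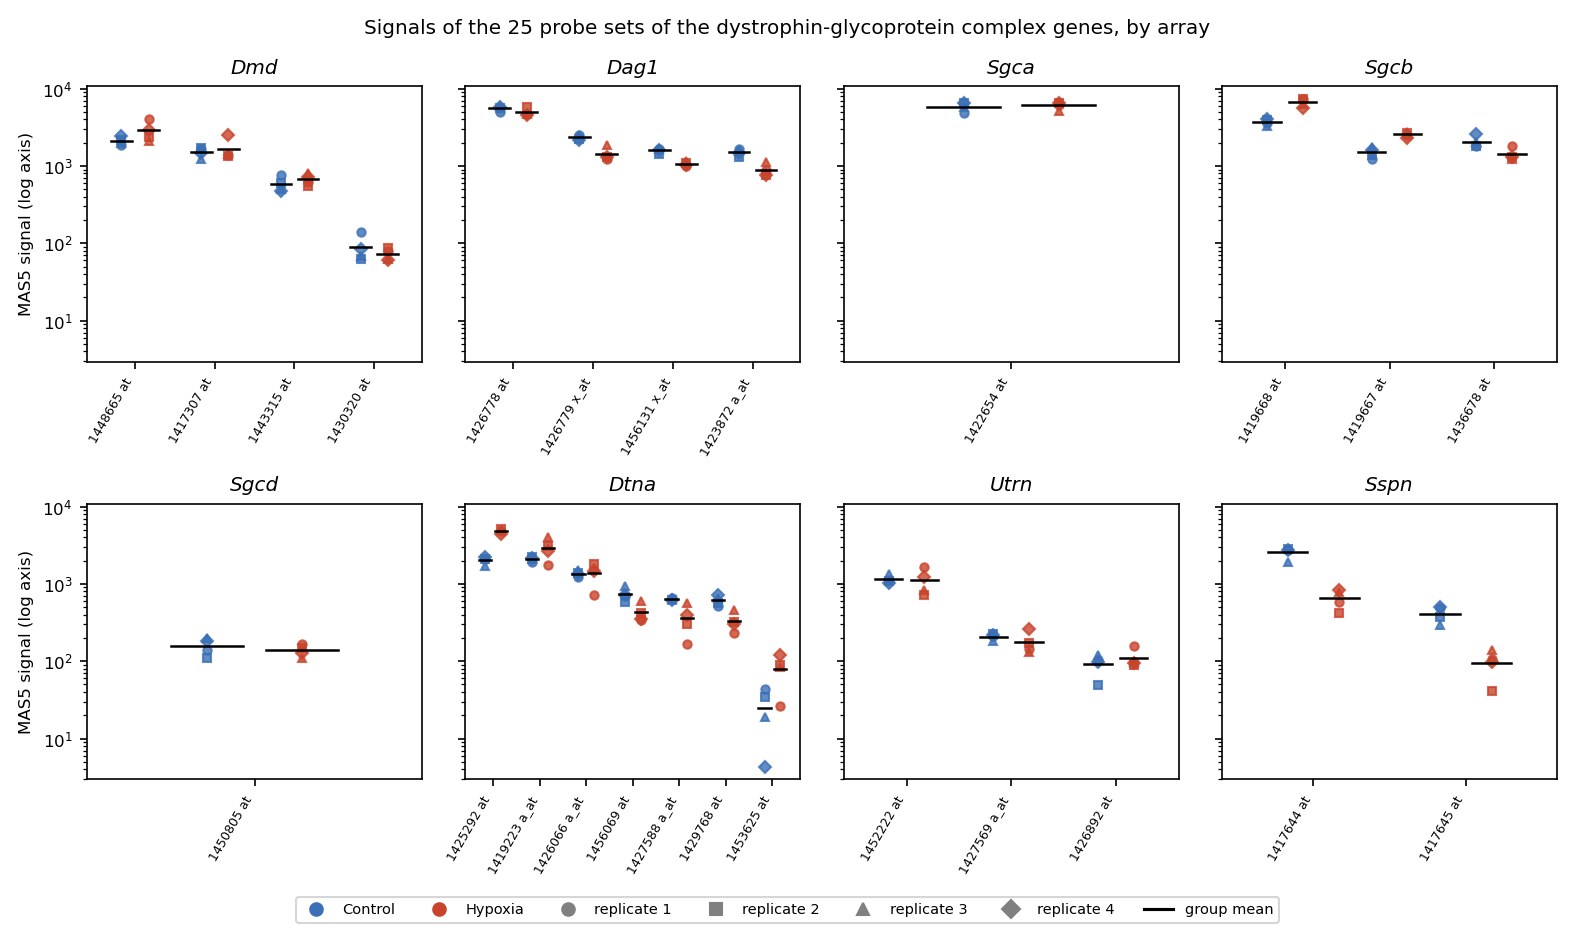
MAS5 signal (log axis) of all 25 probe sets, 1 panel per gene, with control arrays in blue, hypoxia arrays in red, a symbol for each replicate number and a black line for each group mean. The hypoxia arrays of Sspn lie below every control array on both probe sets, and those of the brightest Sgcb and Dtna probe sets lie above; signals of different probe sets should not be compared with each other.

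Before the results, some facts on the arrays bear on them. The ratio of the 3' to the 5' control probe set of Gapdh was 3.44 in Hypoxia replicate 1 against 0.776 to 0.874 in the other 7 arrays. The same ratio of beta-actin was 2.53 in that array. It ranged over 1.40 to 1.59 across Hypoxia replicates 2 to 4, and over 1.09 to 1.25 across the control arrays. A high ratio means less signal from the 5' part of a transcript, and changes without that array are given where they differ. The muscle label held: fast fibre markers (Ckm, Acta1, Myh1, Myh2, Myh4, Tnnt3 and Pvalb) summed to signals of 341020 to 408944 in control and 197199 to 283149 in hypoxia, and 6 of the 7 fell, with a median of -0.48. Fibroblast markers (Pdgfra, Col1a1, Col3a1, Dcn and Lum) summed to 41412 to 46733 in control and 13390 to 17777.5 in hypoxia, and all 5 fell, with a median of -1.70. Of the smooth muscle and pericyte markers 4 of 5 fell and 1 rose, with sums of 26752 to 32885 in control and 12099 to 22868 in hypoxia. None of the 5 endothelial markers passed on its brightest probe set, and their median was -0.50. Their sums were 2624 to 5425 in control and 2015.0 to 4566 in hypoxia. The other probe set of the endothelial marker Cdh5 changed by -0.74 and passed. The part of these cell types in the results below was not tested.

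Dmd encodes dystrophin, the rod-shaped protein whose absence causes Duchenne muscular dystrophy. Its brightest probe set, 1448665_at, read signals of 1883, 2143, 2001.5 and 2416 in Control replicates 1 to 4 and 4049.9, 2387, 2113.5 and 2958 in Hypoxia replicates 1 to 4. The groups overlapped, and the highest value was that of Hypoxia replicate 1, the array with the raised 3' to 5' ratios. The change was 0.41 ± 0.19 (adjusted p = 0.143, limma), and 0.23 ± 0.16 without that array (adjusted p = 0.314). On 1417307_at the control signals were 1248 to 1725 and the hypoxia signals 1333 to 2499, with a change of 0.09 ± 0.21 (adjusted p = 0.801). On 1443315_at they were 471 to 764 and 558 to 819.8, with a change of 0.21 ± 0.20 (adjusted p = 0.469). The last probe set, 1430320_at, was too dim to be tested, with 63.0 to 139 in control and 60.9 to 87.3 in hypoxia. The 3 tested probe sets thus had positive changes, none of which passed the test, and the groups overlapped on each.

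Utrn encodes utrophin, which can stand in for dystrophin at the membrane. On its brightest probe set, 1452222_at, the control signals were 1137, 1099, 1360.1 and 1014 and the hypoxia signals 1672, 726, 824 and 1214. The hypoxia arrays spread over both sides of the control arrays, and the change of -0.12 ± 0.24 did not pass (adjusted p = 0.746), nor did that of -0.34 ± 0.19 without Hypoxia replicate 1 (adjusted p = 0.214). The dimmer 1427569_a_at read 182 to 223 in control and 130.2 to 261 in hypoxia, a change of -0.26 ± 0.25 (adjusted p = 0.48). The dimmest, 1426892_at, read 49.8 to 119 in control and 88.5 to 159 in hypoxia, close to the filter, with a change of 0.23 ± 0.36 (adjusted p = 0.677).

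The changes of the homologues were also set against each other within arrays. The log2 difference of Utrn minus Dmd, each by its brightest probe set, was -0.72, -0.95, -0.55 and -1.24 in control and -1.27, -1.69, -1.34 and -1.27 in hypoxia. It was lower in all 4 hypoxia arrays than in any control array, though the nearest values were -1.24 and -1.27. The 2 changes differed by -0.53 ± 0.18 (SE, n = 4 per group; exact permutation test, two-sided, p = 0.0286, the smallest that 4 against 4 allows). With Dmd read by its other tested probe sets, alternatives chosen after the data were seen, the difference was -0.21 (exact p = 0.486) and -0.33 (exact p = 0.4), and after quantile normalization it was -0.42 (exact p = 0.0857). Without any 1 of the 4 hypoxia arrays it was -0.57 to -0.43 (exact p = 0.0571 each time). The difference therefore passed only with all hypoxia arrays and with the brightest probe set of Dmd, and even then not after quantile normalization.

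Dag1 encodes the protein that is cut into alpha- and beta-dystroglycan, the receptor for laminin at the centre of the complex. Its brightest probe set, 1426778_at, read 4938, 5599.9, 5910.5 and 5728 in control and 4732, 5843.5, 4756 and 4536 in hypoxia. The groups overlapped and the change of -0.16 ± 0.13 did not pass (adjusted p = 0.409). The other 3 probe sets gave a larger fall with no overlap. On 1423872_a_at control read 1300.4 to 1683 and hypoxia 753.5 to 1119.7, a fall of 1.72-fold (-0.78 ± 0.17, adjusted p = 0.004). The falls on 1426779_x_at and 1456131_x_at were 1.66-fold (-0.73 ± 0.16, adjusted p = 0.0046) and 1.48-fold (-0.57 ± 0.14, adjusted p = 0.00836). The suffix x marks probe sets with probes that can also bind other transcripts, and the suffix a marks those that read several transcript forms of a gene. The change of Dag1 is thus uncertain in size. Fibroblast, smooth muscle and pericyte, and fast fibre markers also had negative list medians (-1.70, -0.94 and -0.48). So had adipocyte, Schwann cell, macrophage, endothelial and slow fibre markers (-1.30, -0.80, -0.55, -0.50 and -0.10). Only satellite cell and neutrophil markers had positive ones (0.36 and 3.59). The part of these cell types in the change of Dag1 was not tested.

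Among the sarcoglycans, Sgca encodes alpha-sarcoglycan, a subunit found mainly in striated muscle. Its single probe set, 1422654_at, read 4795, 6463.5, 5705 and 6440.1 in control and 6179, 6478, 5140.5 and 6599.9 in hypoxia. The groups lay over each other, and the change was 0.06 ± 0.15 (adjusted p = 0.79). Sgcd encodes delta-sarcoglycan, and its single probe set, 1450805_at, was dim, with 110.3 to 197 in control and 109 to 166 in hypoxia. Its change of -0.16 ± 0.27 did not pass (adjusted p = 0.716), and its SE was larger than the 0.15 of Sgca.

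Sgcb, the beta-sarcoglycan, forms the core of the subcomplex with delta-sarcoglycan. On 1419668_at the control signals were 3599.9, 3945, 3264 and 4025 and the hypoxia signals 7425, 7453, 6259 and 5558. Every hypoxia array was above every control array, a rise of 1.79-fold (0.84 ± 0.14, adjusted p = 0.000907). The second probe set, 1419667_at, read 1227.5 to 1759 in control and 2296 to 2729 in hypoxia, a rise of 1.71-fold (0.78 ± 0.15, adjusted p = 0.00213). Both rises remained past the threshold without Hypoxia replicate 1 (adjusted p = 0.00145 and 0.00291). The third, 1436678_at, moved the other way. It read 1795.5, 1818, 2021 and 2607 in control and 1799.7, 1306, 1240.2 and 1313.5 in hypoxia, a change of -0.54 ± 0.17 (adjusted p = 0.0353), and Hypoxia replicate 1 was just above the lowest control array. Without that array the fall was -0.66 ± 0.16 (adjusted p = 0.00866), but it did not pass after median centring (-0.45, adjusted p = 0.122) or without Control replicate 3 or 4 or Hypoxia replicate 2, 3 or 4 (adjusted p = 0.0712 to 0.115). The direction of Sgcb as a gene is therefore uncertain, with the 2 probe sets that rose being the more stable.

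Sspn encodes sarcospan, which binds the sarcoglycans in the membrane. On 1417644_at it read 2779, 2822, 1897 and 2704 in control and 581, 416, 774 and 832.5 in hypoxia. Every hypoxia array was below every control array, and the fall was 3.93-fold (adjusted p = 4.08e-05). The dimmer 1417645_at read 488, 368, 297 and 495.5 in control and 105, 40.6, 138 and 97.6 in hypoxia, again with no overlap, and fell 4.0-fold (adjusted p = 0.000496). The hypoxia signals of this second probe set lie near the filter, so its fold depends on the constant added before the logarithm (log2 changes of -2.19 with 1 and -1.59 with 64 in place of 16). Without Hypoxia replicate 1 the changes were -1.94 and -2.07, and both passed. Of the 23 tested probe sets those of Sspn had the largest changes, and both of its probe sets moved alike.

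The stretches before the start sites of Sgcb and Sspn are shown because these members moved in opposite directions on their brightest probe sets. They are the 250 bases before each RefSeq start in GRCm38.p6, read 5' to 3' on the gene's strand, for Sgcb at chr5:73647738-73647987 (minus strand) and for Sspn at chr6:145931623-145931872 and chr6:145933872-145934121 (plus strand, start sites 1 and 2). Capitals mark the letters ACGTG or GCGTG on either strand, the core of the element that hypoxia-inducible factors bind.
Sgcb: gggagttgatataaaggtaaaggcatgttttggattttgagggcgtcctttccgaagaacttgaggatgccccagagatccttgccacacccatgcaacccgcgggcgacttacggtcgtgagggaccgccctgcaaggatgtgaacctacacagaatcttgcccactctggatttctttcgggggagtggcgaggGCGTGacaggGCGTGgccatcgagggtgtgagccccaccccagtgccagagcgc
Sspn start 1: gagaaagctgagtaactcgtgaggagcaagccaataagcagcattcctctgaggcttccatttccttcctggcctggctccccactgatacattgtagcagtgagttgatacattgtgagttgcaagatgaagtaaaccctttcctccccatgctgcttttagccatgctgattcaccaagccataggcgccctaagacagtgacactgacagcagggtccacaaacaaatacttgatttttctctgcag
Sspn start 2: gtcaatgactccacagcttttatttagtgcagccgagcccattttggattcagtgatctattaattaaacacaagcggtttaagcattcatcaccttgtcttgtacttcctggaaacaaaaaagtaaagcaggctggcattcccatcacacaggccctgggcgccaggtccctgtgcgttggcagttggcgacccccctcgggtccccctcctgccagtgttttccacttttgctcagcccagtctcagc
The Sgcb window held 2 such matches and the Sspn windows 0. Whether matches go with direction was not tested. Both Dag1 windows held 3, and Dag1 fell on 3 probe sets and did not pass on its brightest. The windows of Sgcd and Utrn, which did not pass, held 2 each, that of Sgca 0, and those of Dmd 0 and 1. Over the 7 members whose windows were read, all but Dtna, 6 of 10 windows held a match, against 38.6% of all 32851 windows of that length in the table. The Dag1 windows overlap, so they are not separate. The E-box letters CANNTG, which muscle regulatory factors bind, were in 7 of the 10 windows and in 66.2% of all windows. In the windows of Sgcb the E-box was matched 0 times, and in those of Sspn 0 times and 1 time. A match is a run of letters and not a binding site, and a window without one says nothing of a factor.

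Dtna encodes alpha-dystrobrevin, which is spliced into several forms that differ in whether they keep the dystrophin-binding end. It had 7 probe sets, and they moved apart. On the brightest, 1425292_at, control read 2115, 2104, 1695 and 2204 and hypoxia 4822.5, 5068.5, 4981 and 4352. The groups were far apart, and the rise was 2.37-fold (1.24 ± 0.14, adjusted p = 3.61e-05), or 1.24 without Hypoxia replicate 1. Of the 23 probe sets it had the largest rise.

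The next Dtna probe sets did not pass with all 8 arrays. On 1419223_a_at control read 1935, 2219.7, 2088 and 2151 and hypoxia 1766, 3052, 4094.5 and 2638, so that 3 hypoxia arrays were above control and Hypoxia replicate 1 was below it. The change was 0.40 ± 0.21 (adjusted p = 0.194), and 0.61 ± 0.16 without that array, which passed (adjusted p = 0.0136). On 1426066_a_at control read 1214 to 1509.6 and hypoxia 723, 1789, 1626.5 and 1464, with Hypoxia replicate 1 again the lowest of all 8. The change was -0.03 ± 0.24 (adjusted p = 0.943), and 0.26 ± 0.15 without that array (adjusted p = 0.219).

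The remaining 3 tested probe sets of Dtna fell. On 1429768_at control read 515, 558, 658 and 714.5 and hypoxia 231, 325, 461 and 307, with no overlap and a fall of 1.84-fold (-0.88 ± 0.22, adjusted p = 0.00849). On 1427588_a_at control read a narrow 613 to 655.5 and hypoxia 169, 306, 572 and 393, a change of -0.92 ± 0.29 (adjusted p = 0.0296). On 1456069_at control read 588 to 929 and hypoxia 343 to 602.5, with Hypoxia replicate 3 above the lowest control array and a change of -0.76 ± 0.21 (adjusted p = 0.0183). The lowest value of each was that of Hypoxia replicate 1. Without it the changes were -0.73, -0.62 and -0.66, and all 3 passed (adjusted p = 0.0165, 0.0425 and 0.0389). The fall on 1427588_a_at did not pass without any 1 of the 4 control arrays or Hypoxia replicate 2 (adjusted p = 0.0592 to 0.0718), and that on 1456069_at not without Control replicate 3 or Hypoxia replicate 4 (adjusted p = 0.06 and 0.0513). The last probe set, 1453625_at, was below the filter, with 4.3 to 43.1 in control and 26.5 to 119 in hypoxia.

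**Figure D2:**
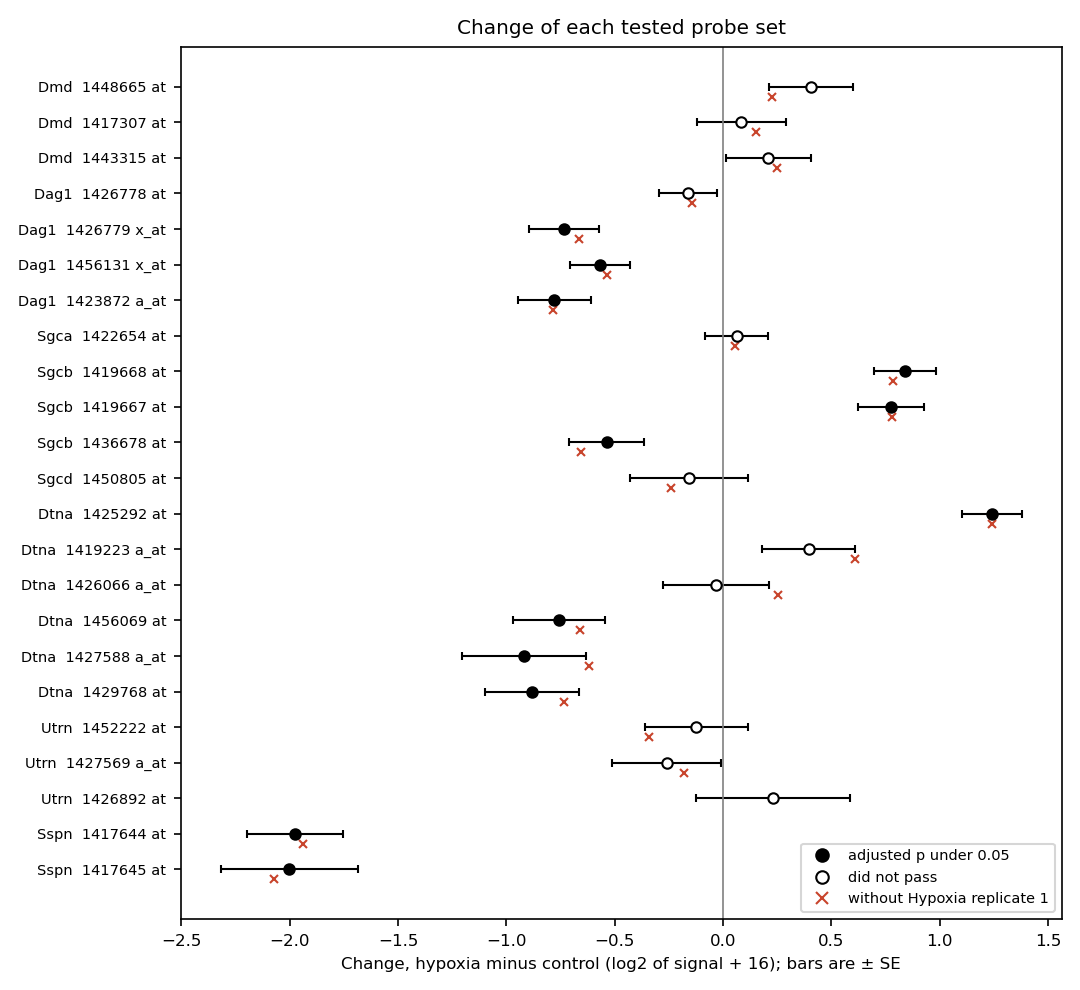
Log2 change (hypoxia minus control) of the 23 tested probe sets with bars of ± SE, filled where the adjusted p is under 0.05; red crosses give the change without Hypoxia replicate 1, where the probe set passed the filter. Both Sspn probe sets stand near -2, while those of Dtna run from -0.92 to 1.24 and those of Sgcb from -0.54 to 0.84.

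Since probe sets of 1 gene disagreed, the log2 difference of each other probe set minus the brightest was taken within each array for 15 pairs. Pairs of 1 gene share its brightest probe set, which for Dtna was the brightest only with the hypoxia arrays included. In 7 of the pairs the exact permutation test over samples (two-sided) gave its smallest p, 0.0286. After adjustment over the 15 pairs the smallest was 0.0612, so 0 passed at 0.05 and 7 were under it unadjusted. A pair at the smallest p passes only if enough other pairs reach it too, however large its difference. The count that passed therefore cannot decide whether the probe sets of any 1 pair changed alike. Without Hypoxia replicate 3, 9 pairs passed after adjustment, and 0 passed without any other 1 array. These 7 were all 5 pairs of Dtna, with differences of -2.16 to -0.85, the pair of Sgcb with 1436678_at, at -1.38, and 1 pair of Dag1, with 1456131_x_at, at -0.41. A limma fit of the same differences over the 9583 pairs of all genes, chosen after the data were seen, called 5 of the 15 member pairs, where 13.8% of all pairs were called. They were 4 pairs of Dtna (adjusted p = 0.00139 to 0.0234) and the Sgcb pair (adjusted p = 0.00334). The Dag1 pairs did not pass in that fit (adjusted p = 0.105 to 0.181), nor did the pair of Sspn (-0.03 ± 0.23, adjusted p = 0.945). Sgcb and Dtna had probe sets called in both directions, as had 2.64% of the 5727 genes with at least 2 tested probe sets.

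**Figure D3:**
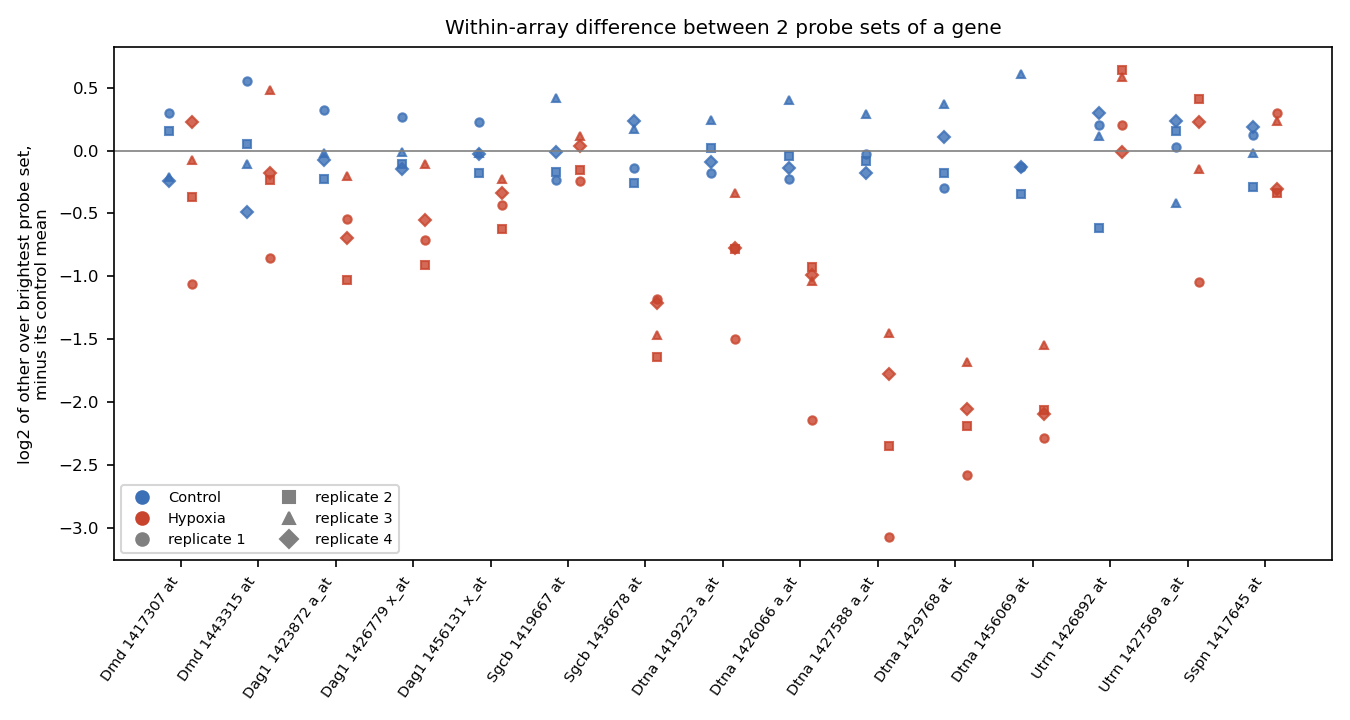
For each of 15 pairs, the log2 of another probe set of the gene over its brightest within an array, set to 0 at the control mean, with control arrays in blue and hypoxia arrays in red. In all 5 Dtna pairs and in the Sgcb pair with 1436678_at every hypoxia array lies below every control array, and Hypoxia replicate 1 is the lowest array in all 5 Dtna pairs.

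Genes around the complex were then read from the same fit, each by its brightest probe set. Of 55 listed genes 43 were tested, 5 were below the filter and 7 were not analysed here. Of the 43, 3 rose (6.98%, against 14% of all 13257 genes) and 17 fell (39.5%, against 17.8%), and their median change was -0.38 against -0.04 for all genes. By either direction 31.9% of all genes passed. The number that rose was 5 after median centring and 6 with a filter of 60%. It was 2 without a filter, with the replicate block, or without Control replicate 1, 3 or 4 or Hypoxia replicate 2. The 14% belongs to the main fit, and the share of all genes that rose was not taken for these alternatives. The place of the listed genes against that share is therefore not known for them. The number that fell was 14 to 18 under all alternatives run on it, and without Hypoxia replicate 1 the counts were 4 and 16.

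Of the matrix proteins that dystroglycan or its partners bind, 6 of 7 tested fell and 0 rose, with a median of -1.10. Egflam, which encodes the dystroglycan ligand pikachurin, read 1107, 1118, 782 and 1018 in control and 198.5, 151, 293 and 375 in hypoxia, a fall of 3.95-fold (adjusted p = 0.00011). Lama2, the laminin alpha chain of the adult fibre's basement membrane, fell 2.15-fold from 1304 ± 194 to 604 ± 141 (SD, n = 4 per group; adjusted p = 0.000881). Lamb1, a laminin beta chain, fell 2.96-fold on a probe set that can bind related transcripts, and its other probe sets fell by 0.90 and 1.71 on the log2 scale. Bgn, the proteoglycan biglycan, fell 2.84-fold. Hspg2, the heparan sulphate proteoglycan perlecan, did not pass on its brightest probe set (0.56 ± 0.21, adjusted p = 0.0604) and changed by -1.85 on another, which passed. In control the probe set that fell was the brighter, with means of 669 against 474. The fibroblast markers moved with this list, and the part of fibroblasts in it was not tested.

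On the inner side of the membrane, 4 of 13 tested partners fell and 1 rose, with a median of -0.04 that turned to 0.02 after quantile normalization and 0.04 after median centring. Synm, an intermediate filament protein that links desmin to the membrane, read 4351, 5997, 4044 and 6368.5 in control and 1198, 1092.5, 959 and 1259 in hypoxia. It fell 4.49-fold (adjusted p = 3.26e-06), and its other probe set fell by 3.30 on the log2 scale. Plec, the cytolinker plectin, fell 2.62-fold on a probe set that can bind related transcripts and by 1.04 on the log2 scale on another, while the third, a dim one, was at 0.02. Cav3, the caveolin of muscle, fell 1.62-fold (adjusted p = 0.0113), and Ank2, an ankyrin, fell 1.70-fold (adjusted p = 0.0237). Ank3, another ankyrin, rose 1.87-fold (adjusted p = 0.00208). Among its 4 other probe sets, rises of 2.30 and 1.67 on the log2 scale passed (adjusted p = 2.03e-06 and 8.8e-05), and a dim one at 0.65 did not. The remaining one fell by 0.66 (adjusted p = 0.0451), so its change is uncertain though most of its called probe sets rose. Nos1, the neuronal nitric oxide synthase that the complex anchors, changed by -0.04 ± 0.15 (adjusted p = 0.86), and Des, the filament protein desmin, by 0.16 ± 0.13 (adjusted p = 0.396). Both were singled out after their values were seen.

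Syntrophins are adaptors that dystrophin and dystrobrevin bind, and Sntb1, also singled out afterwards, moved differently by probe set. Its brightest probe set changed by 0.13 ± 0.20 (adjusted p = 0.68). Its 4 others, at control means of 205 to 335, changed by -1.06 to -1.80 and all 4 passed (adjusted p = 0.00292 to 0.0461). In control the first had a mean of 257, and those that fell at means of 277, 292 and 335 were brighter than it. Sntb2, a related syntrophin, did not pass on its brightest probe set (-0.38 ± 0.40) and changed by -1.43 on its other (adjusted p = 0.0388). Both Sntb2 probe sets were dim, and in control the one that fell was the brighter, with means of 167 against 120.

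The enzymes that build the sugar chains of alpha-dystroglycan, and those that supply them, were mixed: 4 of 12 tested fell, 1 rose, and the median was -0.24. B3galnt2, which adds a sugar of the laminin-binding chain, read 3409, 3699, 3613 and 3752 in control and 1277, 1196, 1829 and 619 in hypoxia, a fall of 3.12-fold (adjusted p = 0.000449). B4gat1, which primes the chain, fell 2.00-fold from 1096 ± 77.8 to 542 ± 74.0 (SD, n = 4 per group; adjusted p = 0.000512). Pomgnt2, which extends the same chain, fell 1.78-fold, and Pomt1, the first mannosyltransferase, changed by -1.34 ± 0.47 (adjusted p = 0.0479). Pomt1 read 38.4, 262, 361 and 129 in Hypoxia replicates 1 to 4, against 366 to 433 in control, so its size rests much on Hypoxia replicate 1. Dpm1, a subunit of the enzyme that makes the mannose donor, rose 1.33-fold but fell by 0.68 on the log2 scale on its other probe set, so its change is uncertain. Of the sarcoglycans that are not among the 8 genes, only Sgce was tested. It encodes epsilon-sarcoglycan, which is not confined to muscle, and it fell 1.83-fold from 899 ± 136 to 493 ± 138 (SD, n = 4 per group; adjusted p = 0.00654), with a dim second probe set at 0.24.

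Integrins form the other main link of the fibre to laminin. Of 10 genes of this system 2 fell and 1 rose, with a median of -0.30. Flnc, the filamin of muscle, which also binds sarcoglycans, read 2216, 1457, 1703 and 1623 in control and 4512, 5791.5, 5496 and 5511 in hypoxia. It rose 3.05-fold (adjusted p = 1.53e-05) on a probe set that can bind other transcripts and by 1.30 on another. Itgb1bp2, the muscle protein melusin that binds the integrin beta 1 tail, fell 5.01-fold (adjusted p = 1.87e-05), and Tln2, a talin of muscle, fell 2.56-fold (adjusted p = 0.000531). Lims1, an adaptor of the integrin-linked kinase, changed by -0.45 ± 0.17 on its brightest probe set and did not pass (adjusted p = 0.0663). Of its other probe sets 1 fell by 1.45 on the log2 scale (adjusted p = 0.00475) and 1 did not pass (-0.29), so its change is uncertain. Itga7 and Itgb1, the main laminin receptor of the fibre, were singled out afterwards and changed by -0.38 ± 0.27 and 0.20 ± 0.24, and neither passed. Itga7 read 379, 773, 1112 and 840 in Hypoxia replicates 1 to 4, against 807 to 1023 in control.

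**Figure D4:**
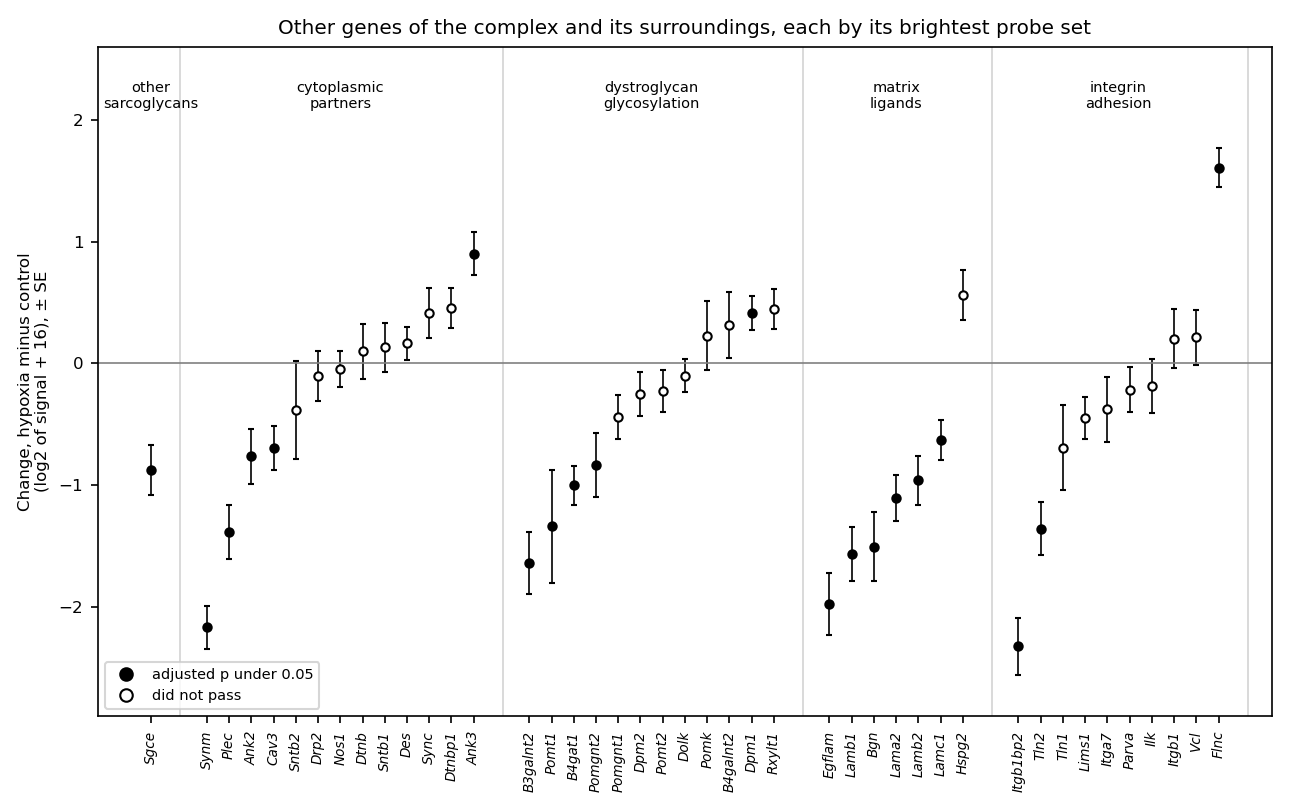
Log2 change (hypoxia minus control, ± SE) of 43 genes around the complex, each by its brightest probe set, in 5 lists, filled where the adjusted p is under 0.05. All matrix ligands except Hspg2 lie below 0, while the other lists with more than 1 gene spread over both sides and Flnc stands highest at 1.61.

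Likeness was measured by Pearson's r of log2 values over the 8 arrays, as a description, with the difference between the groups included in it. The genes most like Sspn were Ky (r = 0.996), a muscle protein, Egflam (r = 0.996), named above, and Dhrs1 (r = 0.995). With the group means taken out these values were 0.957, 0.967 and 0.958. All 3 fell, with changes of -4.03, -1.98 and -1.21. The genes most like Dmd were Glrx2, a mitochondrial glutaredoxin (r = 0.978), Pnrc2 (r = 0.978) and Scyl3 (r = 0.978). Of these Pnrc2 rose by 0.74 ± 0.24 (adjusted p = 0.0357), and Glrx2 and Scyl3 did not pass, as Dmd did not.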

How the data were processed

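Total RNA of 8 quadriceps samples was read on Affymetrix mouse arrays, 1 per sample. The authors deposited signal intensities made with MAS5, per the submitters' processing notes; for its version and settings the sources used here give nothing. MAS5 subtracts a background and scales each array, and every array had the same 2% trimmed mean, 500.0. Scaling to a common mean lets changes in bright transcripts shift all others slightly.

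Signals were taken as log2(signal + 16). After removal of 64 control probe sets and the dimmest 40%, 27022 probe sets were compared with limma 3.58.1 in R 4.3.3 (intensity trend, no block, threshold 0.05). The procedure was also run on simulated data with 200 changed probe sets, far fewer than the 7790 called here, and its outcome is not given. Symbols came from the platform annotation, updated through gene identifiers (99.4% matched). For lists each gene was read by its brightest probe set.

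Named genes are all members, up to 4 per list with the smallest p, and the 3 most like Dmd and like the member with the largest change. Members and lists were chosen with earlier results of these data known.

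Of the marker lists the report does not describe, slow fibre genes had 1 of 4 lower (Myl3), satellite cell genes 0 of 2 called, macrophage genes 1 of 4 higher and 2 lower, neutrophil genes 2 of 2 higher, adipocyte genes 2 of 2 lower and Schwann cell genes 0 of 2 called.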

Additional observations from a re-analysis of the deposited data

Results flagged for a closer look

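Among the 46 groups of 4 arrays given by the 23 tested probe sets, 3 held an array that stood apart from the other 3 by Dixon's test, where chance flags about 1 in 20 groups. On Dmd 1417307_at, Hypoxia replicate 4 read 2499 against 1333 to 1448 in the other hypoxia arrays. On Sspn 1417644_at, Control replicate 3 read 1897 against 2704 to 2822 in the other control arrays, and it was still above every hypoxia array. On Sgcb 1436678_at, Hypoxia replicate 1, the array with the raised 3' to 5' ratios, read 1799.7 against 1240.2 to 1313.5 in the other hypoxia arrays.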

How the results depend on the processing

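Of the 12 member probe sets called, 9 (2 of Sspn, 2 of Sgcb, 3 of Dag1, and Dtna 1425292_at and 1429768_at) kept direction and call under every alternative run on them: pseudocounts of 1 and 64, median centring, quantile normalization, a filter of none or 60% (which left out Sspn 1417645_at), eBayes without trend or robust, array weights, the replicate block and each array left out. Dtna 1427588_a_at also lost its call without the trend (adjusted p = 0.0526), as did Sgcb 1436678_at (adjusted p = 0.069). Signs turned only where no call stood: Sgca to -0.069 (quantile) and -0.029 (without Control replicate 1, range to 0.14), Dtna 1426066_a_at to 0.028 (quantile), 0.051 (median centring), 0.12 (array weights), 0.02 (without Control replicate 3) and 0.26 (without Hypoxia replicate 1, range from -0.17), Dmd 1417307_at to -0.01 and -0.12 (without Control replicate 3 or Hypoxia replicate 4, range to 0.18), and Utrn 1452222_at to 0.051 (without Hypoxia replicate 2, range from -0.34). Called members were 3 to 4 higher and 6 to 9 lower with an array left out, and 2 higher and 1 lower when limma was fitted and p adjusted over only the brightest probe sets of the 13257 genes. That refit called 1959 genes higher and 2489 lower, against 1860 and 2363 for the same probe sets in the fit of all probe sets. Of the genes around the complex 5 rose in that refit, 5 after median centring, 6 with a 60% filter, 2 without a filter or with the replicate block, and 2 to 4 with an array left out. Of all calls 43.2% were higher with the deposited scaling and 50.2% after either other scaling, and the median change moved from -0.04 to 0.04. The Utrn minus Dmd difference was -0.42 (exact p = 0.0857) after quantile normalization, -0.21 and -0.33 with other Dmd probe sets, and -0.65 to -0.42 with an array left out (exact p = 0.0571 without any 1 of the 4 hypoxia arrays). Pairs of probe sets that passed numbered 7 with a 60% filter, 5 in the limma fit of all pairs and 0 to 9 with an array left out (9 without Hypoxia replicate 3). With the 60% filter the differences were unchanged and fewer pairs were adjusted over. Samples of the same replicate number did not deviate together (correlations of -0.07 to 0.01, and 0 of 4 correlated best with its own number). With the replicate block 2952 probe sets rose and 3930 fell, of the members 3 and 8, with Sgcb 1436678_at losing its call (adjusted p = 0.0641), and the Utrn minus Dmd difference stayed -0.53. The exact tests have no blocked p under 0.05 with 4 pairs.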
